A study of Mus musculus with 8 samples.

Results

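Levels of 10 regulators of mitochondrial shape, number and gene expression were followed through the reprogramming of mouse fibroblasts to induced pluripotent stem cells (iPSCs). The genes were chosen by name and were Mfn1, Mfn2, Opa1, Dnm1l, Fis1, Ucp2, Tfam, Esrra, Ppargc1a and Ppargc1b. All 10 were found, each on 1 row, among the 17922 rows of the deposited table, and 9 of them reached 1 FPKM in at least 1 library. FPKM scales the sequenced fragments of a gene to the length of its gene model and to the size of the library, so it is a share of the RNA of a library and not a number of molecules per cell.

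The groups were the starting mouse embryonic fibroblasts (MEFs, day 0), cells at day 3 and day 6 after induction, and iPSCs described as fully reprogrammed, with 1 long RNA library each. All were C57BL/6 cells from tetO-OSKM mice, in which doxycycline switches on Pou5f1, Sox2, Klf4 and Myc, and the MEFs came from 13.5-day fetuses. Cells under induction received 2 ug/ml doxycycline in a medium with 15% serum replacement, 1000 U/mL LIF and 3 uM of the GSK3 inhibitor CHIR99021. Neither the medium of the MEFs and of the iPSCs nor whether the iPSCs were 1 clone is stated in the labels, so stage and medium cannot be told apart. With 1 library a stage no difference has a replicate error or a test.

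Mitochondria form a network that fuses and divides. Mitofusins on the outer membrane and OPA1 on the inner membrane join mitochondria, and the dynamin DRP1 (encoded by Dnm1l), recruited by adaptors on the outer membrane, cuts them. New mitochondria need transcription of the mitochondrial genome, for which TFAM binds and packs the DNA, and the nuclear supply of mitochondrial proteins, which the PGC-1 coactivators raise together with factors such as ERR-alpha, NRF1 and GABP. Fibroblasts are known for long, branched mitochondria, and pluripotent cells for small, rounded mitochondria with few cristae and a strong use of glycolysis.

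Promoters are shown for Ucp2, Tfam, Mfn2 and Fis1, whose levels differed by 2-fold or more between iPSCs and MEFs. Ucp2 and Tfam were higher and Mfn2 and Fis1 lower in iPSCs. Ppargc1a and Ppargc1b also differed by 2-fold or more, but did not exceed 1.13 FPKM in any library, and their promoters are not shown. The letters are the 250 bases upstream of the outermost annotated start, 5′ to 3′ on the strand of the gene, from the RefSeq table of build GRCm38.p6, which is not the mm9 build of the expression table. Capitals mark the core of the GABP (ETS family) element, CCGGAAG.
Ucp2: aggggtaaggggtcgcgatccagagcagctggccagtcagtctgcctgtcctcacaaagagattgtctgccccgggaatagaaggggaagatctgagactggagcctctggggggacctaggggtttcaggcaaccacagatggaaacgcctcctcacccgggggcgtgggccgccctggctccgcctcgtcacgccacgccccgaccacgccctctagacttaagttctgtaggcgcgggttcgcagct
Tfam: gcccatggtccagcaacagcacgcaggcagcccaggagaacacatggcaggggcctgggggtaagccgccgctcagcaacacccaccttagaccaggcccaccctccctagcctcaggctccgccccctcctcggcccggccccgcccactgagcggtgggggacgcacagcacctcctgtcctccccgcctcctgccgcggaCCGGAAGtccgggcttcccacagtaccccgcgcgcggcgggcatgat
Mfn2: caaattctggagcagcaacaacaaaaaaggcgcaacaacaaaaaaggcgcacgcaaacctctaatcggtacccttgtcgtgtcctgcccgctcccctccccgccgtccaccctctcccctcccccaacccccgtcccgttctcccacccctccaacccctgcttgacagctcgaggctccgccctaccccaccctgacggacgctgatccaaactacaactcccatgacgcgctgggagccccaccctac
Fis1: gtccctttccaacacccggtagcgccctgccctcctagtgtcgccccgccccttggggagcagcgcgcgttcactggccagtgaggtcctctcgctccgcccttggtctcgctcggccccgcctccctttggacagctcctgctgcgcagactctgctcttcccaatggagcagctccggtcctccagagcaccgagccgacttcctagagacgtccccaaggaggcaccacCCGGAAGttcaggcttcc
The Ucp2 stretch is chr7:100493108-100493357 on the plus strand and that of Tfam is chr10:71238045-71238294 on the minus strand. That of Mfn2, 1 of 3 annotated starts, is chr4:147904910-147905159 on the minus strand, and that of Fis1, 1 of 2 annotated starts, is chr5:136953025-136953274 on the plus strand.

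Windows of 300 bases, which add 50 bases after the start, were searched on both strands for 4 motifs in the 13 windows of the 9 members that the table holds, which were all but Ppargc1b. The 3 windows of Mfn2 overlap. The GABP core was in 5 windows, belonging to Tfam, Fis1, Mfn1 and Dnm1l, and in 8.86% of all 32851 windows. It thus lay upstream of the start of a gene that was higher in iPSCs (Tfam). For Fis1, which was lower, it lay upstream of 1 of 2 annotated starts and downstream of the other. The core also lay near the start of genes close to their MEF levels, upstream for Mfn1 and downstream for Dnm1l. The NRF1 core GCATGCGC was in the windows of Opa1 and Esrra and in 2.71% of all windows. The ERR element TCAAGGTCA and the E-box CACGTG bound by MYC were in 0 of the 13 windows and in 0.42% and 7.15% of all windows. The matches of different motifs did not overlap each other, and Opa1 held 2 overlapping matches of the NRF1 core. A match is a run of letters and not a measured binding site.

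Markers of cell types were read first. Fibroblast markers, 8 in number, summed to 34.9 FPKM in iPSCs and to between 5156 and 5856 FPKM in MEFs and at day 3 and day 6. The 8 pluripotency markers summed to 1853 FPKM in iPSCs and to between 0.906 and 9.03 FPKM in the other libraries. Of the day 6 sum 8.56 FPKM was Pou5f1, which is among the genes that doxycycline switches on. Nanog was at 0.241 FPKM at day 6, and Dppa4 and Utf1 were listed at 0 there. Of 7 macrophage and leukocyte markers, summed at 12.8 FPKM in iPSCs and 55.1 to 75.9 FPKM in the others, Ptprc, Emr1 and Tyrobp were listed at 0 in iPSCs. Lyz2 made up most of the MEF sum, at 52.9 FPKM, against 0.0298 FPKM in iPSCs. Cd68 went the other way, at 11.9 FPKM in iPSCs, against 8.45 FPKM in MEFs, and made up most of the iPSC sum. The 3 endothelial markers found summed to 26.5 FPKM in iPSCs and at most 0.16 FPKM in the others. Of the iPSC sum 26.2 FPKM was Pecam1, while Cdh5 was at 0.202 FPKM and Kdr at 0.0906 FPKM. The 4 epithelial markers summed to 511 FPKM in iPSCs and at most 3.65 FPKM in the others. The 3 skeletal muscle markers found summed to 54.3 FPKM in iPSCs and 14.1 to 38.9 FPKM in the others. Of these, Acta1 was lower in iPSCs, at 29.5 FPKM, against 38.3 FPKM in MEFs. Des was higher, at 24.7 FPKM in iPSCs, against 0.647 FPKM in MEFs, and Myog was at 0.0909 FPKM in iPSCs. The part of these cell types in the differences between stages was not tested, and fewer cells of a type and less RNA per cell cannot be told apart in such libraries. The lowest values put the fragments of the day 3 library at 0.65 of those of the MEF library and both other libraries at 1.1, so that low levels were least precise at day 3.

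The rule of size called a gene higher or lower when its difference was at least 1 on the log2(FPKM + 1) scale and the higher value at least 1 FPKM. In the early contrasts 0 of 8 members compared were past it. That was so for day 3 against MEFs, where 0.221% of all rows were, for day 6 against day 3 (0.855%) and for day 6 against MEFs (1.35%). Between iPSCs and MEFs 5 of 9 members were past it, with Ucp2, Tfam and Ppargc1b higher and Mfn2 and Fis1 lower. Over all 12937 rows 46.0% were past the rule, 21.1% higher and 25.0% lower, so the share among members was near that of the table. Between iPSCs and day 6 3 members were higher and 1 (Mfn2) lower of 9, beside 20.4% of all rows higher, 23.4% lower and 43.8% in either direction. The median difference of the members was 0.20 between iPSCs and MEFs, beside -0.045 over all rows. After rescaling to the same upper quartile these medians were 0.359 for the members and 0.125 for all rows. These contrasts share libraries and are not independent of each other.

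**Figure D1:**
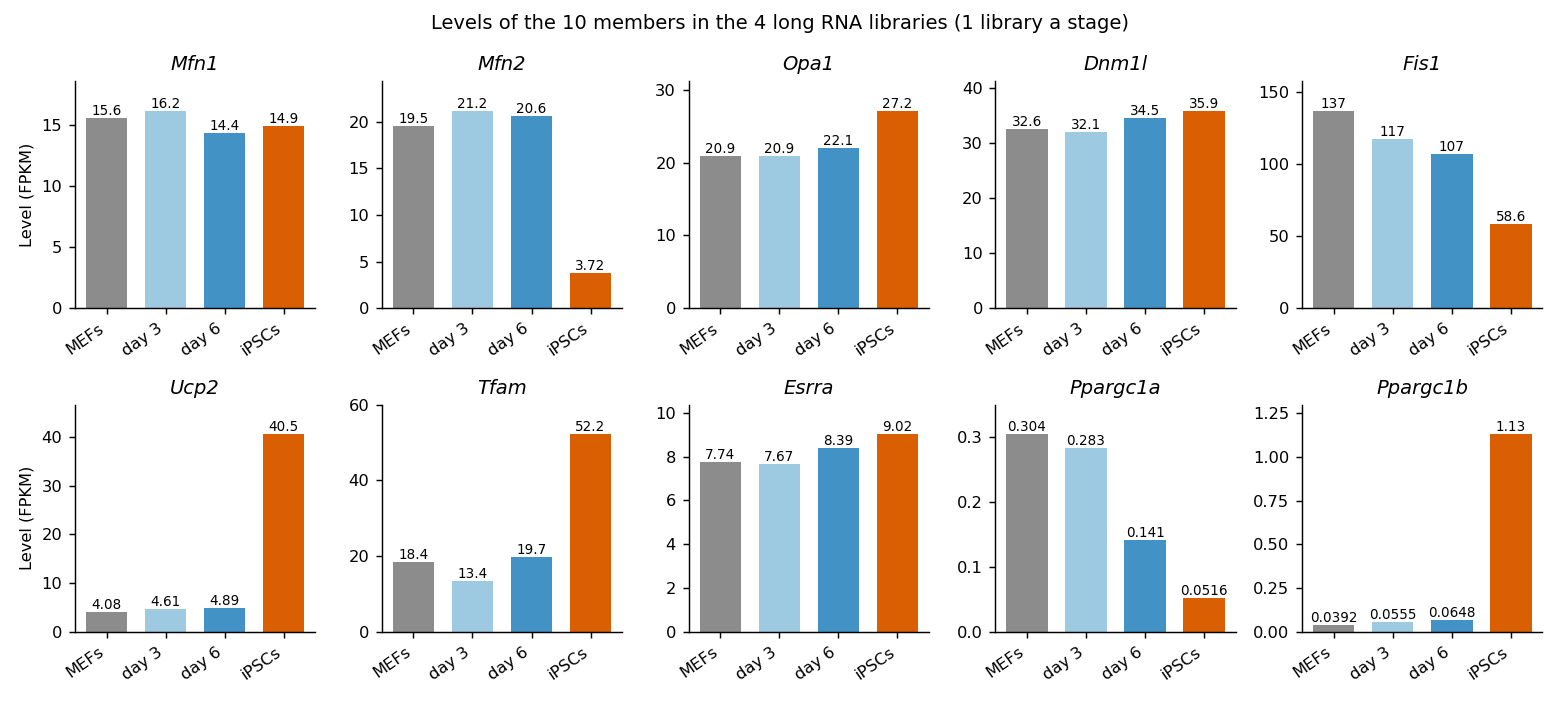
Level in FPKM (vertical axes, each from 0 with its own range) of each member in the 4 libraries in the order of reprogramming, 1 bar for 1 library, with no error since there were no replicates. Ucp2, Tfam and Ppargc1b have their tallest bar in iPSCs, at 40.5, 52.2 and 1.13 FPKM, and Mfn2 and Fis1 their shortest, at 3.72 and 58.6 FPKM.

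The outer membrane fusion genes parted in iPSCs. Mfn2, the mitofusin that also sits at contacts of mitochondria with the endoplasmic reticulum, had 19.5 FPKM in the MEF library, 21.2 at day 3, 20.6 at day 6 and 3.72 in iPSCs. The first 3 libraries lay close together and iPSCs stood far below them. The level in iPSCs was 5.25-fold lower than in MEFs, a difference of -2.12 on the log2(FPKM + 1) scale, which was the 1165th lowest of 12937 rows. Mfn1, the mitofusin with the stronger tethering and GTPase activity, was at 15.6, 16.2, 14.4 and 14.9 FPKM over the same stages. Its iPSC level differed from that of MEFs by -0.06, and by 0.11 after rescaling to the same upper quartile, so its sign depended on the scaling.

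Since FPKM is per length and both genes were read in the same library, their ratio does not depend on library scaling. The level of Mfn1 was 0.799 times that of Mfn2 in the MEF library, 0.763 at day 3, 0.698 at day 6 and 4.02 in iPSCs. Mfn2 thus made up 55.6% of the summed mitofusin FPKM in the MEF library, 56.7% at day 3, 58.9% at day 6 and 19.9% in iPSCs. The sum itself was 18.6 FPKM in iPSCs, against 35.1 FPKM in MEFs. The gene Gnb4 overlaps Mfn1 in the reference annotation, and the strand setting of the counting is not given, so reads in the overlap cannot be assigned with certainty. Gnb4 was at 30.3, 33.0, 24.0 and 4.17 FPKM over the 4 stages, far lower in iPSCs than in the other libraries, while Mfn1 was not.

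Opa1, the inner membrane GTPase of fusion and cristae, had 20.9 FPKM in the MEF library, 20.9 at day 3, 22.1 at day 6 and 27.2 in iPSCs. The iPSC library was the highest, by 0.37 over MEFs, which is within the rule. Relative to Mfn2, Opa1 was at 7.33 in iPSCs, against 1.07 in MEFs. Relative to Mfn1 it was at 1.82 in iPSCs, against 1.34 in MEFs.

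The fission genes also differed from each other. Fis1, an outer membrane adaptor of fission, had 137 FPKM in the MEF library, 117 at day 3, 107 at day 6 and 58.6 in iPSCs. It had the highest level of the members in every library, and each later library was below the earlier one. The iPSC level was 2.33-fold lower than in MEFs, a difference of -1.21. Against day 6 it was lower by 1.83-fold (-0.86), which falls short of the rule. Between day 3 and MEFs Fis1 differed by -0.23, and 9.87% of the rows compared were as low or lower.

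Dnm1l, the gene of DRP1, had 32.6, 32.1, 34.5 and 35.9 FPKM from MEFs through day 3 and day 6 to iPSCs. All 4 libraries lay close together, and iPSCs were 0.13 above MEFs. The ratio of Fis1 to Dnm1l was 4.19 in the MEF library, 3.64 at day 3, 3.11 at day 6 and 1.63 in iPSCs. The level of the adaptor thus differed between iPSCs and MEFs where that of the GTPase did not pass the rule.

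Ucp2 had the largest difference of the members. It encodes a carrier of the inner membrane of the uncoupling protein family, which has been linked to substrate choice between glucose and glutamine. Its level was 4.08 FPKM in the MEF library, 4.61 at day 3, 4.89 at day 6 and 40.5 in iPSCs. The 3 earlier libraries were within 1 FPKM of each other and iPSCs stood far above them. The level in iPSCs was 9.92-fold that in MEFs, a difference of 3.03, the 356th highest of 12937 rows. Of its closest relatives, Ucp1 was listed at 0 in MEFs and at day 6 and reached 0.116 FPKM in iPSCs. Ucp3 did not exceed 0.0336 FPKM in any library.

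Tfam was the member with the largest early differences. It had 18.4 FPKM in the MEF library, 13.4 at day 3, 19.7 at day 6 and 52.2 in iPSCs. The day 3 library was the lowest and the iPSC library the highest. The difference between day 3 and MEFs was -0.43, the 192nd lowest of 11740 rows, and that between day 6 and day 3 was 0.52, the 287th highest of 11817 rows. Both values rest on the day 3 library, and day 6 differed from MEFs by 0.09. For scale, the central 95% of the 5724 rows between 10 and 100 FPKM lay between -0.31 and 0.33 for day 3 minus MEFs. For day 6 minus day 3 the central 95% of 5687 such rows lay between -0.48 and 0.36. The level in iPSCs was 2.83-fold that in MEFs, a difference of 1.45, the 1617th highest of 12937 rows.

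The 13 protein genes of the mitochondrial genome, which TFAM helps to transcribe, were set beside it after their values had been seen. Their levels differed widely. In MEFs mt-Nd3, mt-Nd4l, mt-Co2, mt-Co3, mt-Atp6 and mt-Atp8 were between 5.88 and 22.5 FPKM, against 6222 FPKM for mt-Co1. The median difference of all 13 between iPSCs and MEFs was -0.72. Of these genes 4 were lower and 1 (mt-Atp8) higher, beside 25.0% and 21.1% of all rows. Between day 3 and MEFs the median was 0.33, with 0 past the rule, beside 0.221% of all rows. Between day 6 and MEFs the median was 0.39, with 1 gene (mt-Atp8) higher and 0 lower, beside 1.35% of all rows past the rule. Between day 6 and day 3 the median was 0.02, with 0 past the rule, beside 0.855% of all rows. Between iPSCs and day 6 the median was -1.09, with 8 of the 13 lower and 0 higher, beside 23.4% and 20.4% of all rows. For day 6 against day 3, 7 of the genes were above 0 and 6 below. Each of these medians was the value of a gene from the low group named above. Tfam thus had the other sign from these medians at day 3 relative to MEFs and in iPSCs relative to both MEFs and day 6. It had the same sign in the contrasts of day 6 with MEFs and with day 3, where the latter median was near 0. Counting differences within the rule, 9 of the 13 were lower in iPSCs than in MEFs and 4 higher. Those lower and past the rule were mt-Nd1, mt-Nd2, mt-Nd4 and mt-Cytb. Among them mt-Nd1 was at 1386 FPKM in iPSCs, against 4096 FPKM in MEFs, and mt-Cytb at 582 FPKM, against 2145 FPKM. The differences of mt-Nd5 (-0.93) and mt-Nd6 (-0.76) were within the rule. Unlike these 6 genes, mt-Co1 stood at 6598 FPKM in iPSCs, against 6222 FPKM in MEFs.

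Of the PGC-1 coactivators, Ppargc1a, the main inducer of mitochondrial biogenesis in brown fat and muscle, was at 0.304, 0.283, 0.141 and 0.0516 FPKM over the stages. It did not reach 1 FPKM in any library and was therefore not compared. Ppargc1b, which shares its partners, had 0.0392 FPKM in the MEF library, 0.0555 at day 3, 0.0648 at day 6 and 1.13 in iPSCs. It was past the rule between iPSCs and MEFs by a small margin (1.04), a value that depends on the pseudocount, since the difference was 3.15 with 0.1 FPKM and 0.28 with 5 FPKM. The ratio of the FPKM values themselves was 28.9. The levels of both genes crossed over, with Ppargc1b at 22.0 times Ppargc1a in iPSCs, against 0.129 times in MEFs. At such levels few fragments lie behind each value. The reference annotation places Mir378a and 2 long noncoding RNA genes in Ppargc1b, and reads in those stretches cannot be told apart without strand.

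Esrra, the gene of the nuclear receptor ERR-alpha through which PGC-1 acts on respiratory genes, had 7.74, 7.67, 8.39 and 9.02 FPKM from MEFs through day 3 and day 6 to iPSCs. The 4 libraries lay close together, with iPSCs 0.20 above MEFs. Its overlapping neighbour Trmt112 was also nearly level, at 1.56, 1.5, 1.56 and 1.95 FPKM. Of the related receptors in the fixed lists, Esrrb, a pluripotency factor, was at 84.4 FPKM in iPSCs, against 0.0629 FPKM in MEFs, and Esrrg did not exceed 0.0796 FPKM.

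**Figure D2:**
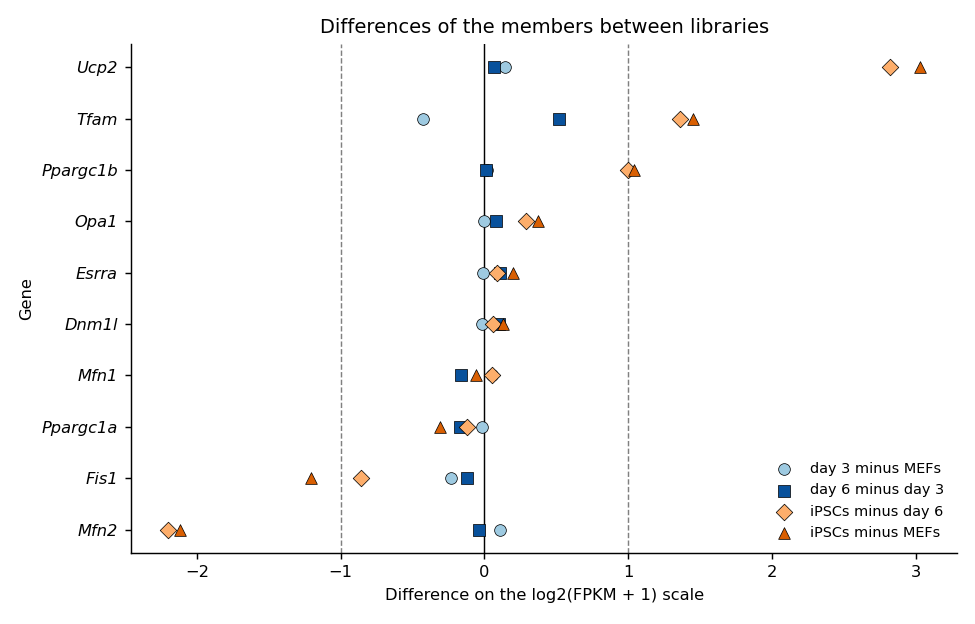
Differences on the log2(FPKM + 1) scale (horizontal axis) of each member (vertical axis), with 1 symbol for each of 4 contrasts and dashed lines at the rule of size. The symbols of day 3 minus MEFs and day 6 minus day 3 lie between -0.43 and 0.52, while those of iPSCs minus MEFs reach from -2.12 for Mfn2 to 3.03 for Ucp2.

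The order of the members by level also differed between stages. In MEFs it ran from Fis1 (137 FPKM) through Dnm1l (32.6), Opa1 (20.9), Mfn2 (19.5), Tfam (18.4), Mfn1 (15.6), Esrra (7.74) and Ucp2 (4.08) to the PGC-1 genes under 1 FPKM. Opa1, Mfn2 and Tfam were neighbours in that order with levels within 3 FPKM of each other, and no replicate spread shows whether they differ. In iPSCs it ran from Fis1 (58.6) through Tfam (52.2), Ucp2 (40.5), Dnm1l (35.9), Opa1 (27.2), Mfn1 (14.9) and Esrra (9.02) to Mfn2 (3.72). By rank among all rows, Ucp2 stood at percentile 89.8 of the iPSC library, against 48.1 of the MEF library. Mfn2 stood at percentile 49.0 of the iPSC library, against 76.4 of the MEF library.

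**Figure D3:**
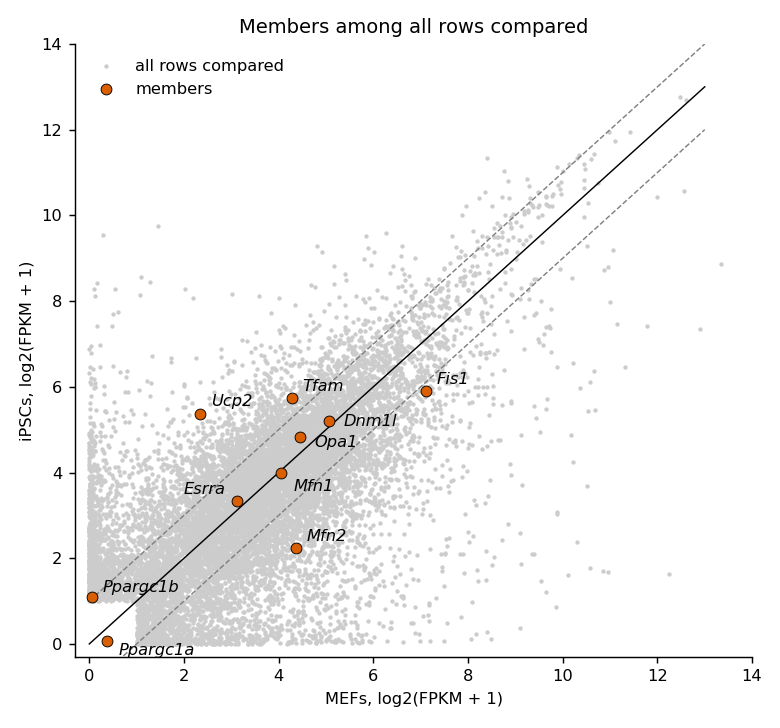
Level in iPSCs (vertical axis) against level in MEFs (horizontal axis), both as log2(FPKM + 1), for all 12937 rows compared (grey) and the 10 members (orange), with a solid line at equality and dashed lines at the rule of size. Ucp2, Tfam and Ppargc1b lie above the upper dashed line, Ppargc1b only just, and Mfn2 and Fis1 lie below the lower one.

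For each member past the rule, the rows nearest in shape over the 4 libraries were found by Euclidean distance of centred log2(FPKM + 1) values among 12017 named rows at 1 FPKM or more. With 4 points, of which iPSCs carry most of the range, many rows lie close. Nearest to Ucp2 were Wdr76 (distance 0.069), Sh3tc1 (0.083) and Lbr (0.085), with Lbr at 114 FPKM in iPSCs, against 14.2 FPKM in MEFs. Nearest to Mfn2 were Cenpb (0.036), Myo5a (0.050) and Sepn1 (0.052), and nearest to Fis1 were Sec23a (0.016), Dnase1l1 (0.039) and Pacsin3 (0.044). Tfam had Calml4 (0.045), Haus1 (0.137) and Znhit3 (0.151). Each of these was also lowest at day 3, which their choice by closeness to the shape of Tfam favours. Ppargc1b had Cpne7 (0.017), Gal3st3 (0.020) and Fcf1 (0.022). Fcf1 was at 56.5 FPKM in iPSCs, against 27.3 FPKM in MEFs, and Ppargc1b at 1.13 FPKM, against 0.0392 FPKM. Their closeness thus rests on the pseudocount of 1 FPKM, which shrinks the difference of Ppargc1b.

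Other genes of the same processes were described from 8 lists with 101 genes, all of which were found. None was past the rule before the iPSC stage (0 of 88 at day 3 against MEFs, 0 of 89 at day 6 against day 3 and 0 of 89 at day 6 against MEFs). Few of all rows were past it either, at 0.221%, 0.855% and 1.35% in the same contrasts. Between iPSCs and MEFs 24 were higher and 10 lower of 93 (36.6%, beside 46.0% of all rows), with a median difference of 0.44. Rescaling to the same upper quartile, which moved the median of all rows to 0.125, gave 30 higher and 9 lower of 94. Of all 12980 rows compared after that rescaling, 3226 were higher and 2826 lower.

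The fusion, cristae and inner membrane quality control list had 4 higher and 0 lower of 18 in the iPSC library relative to MEFs (median 0.45). Beside the counts of this list and of the lists that follow, 21.1% of all rows were higher and 25.0% lower. Whether any list departs from these shares was not tested. Pld6, a mitochondrial phospholipase also known for piRNA formation, was at 2.67 FPKM in iPSCs, against 0.225 FPKM in MEFs. Miga1 (Fam73a in the table), which acts with Pld6 in fusion, was at 5.86 FPKM in iPSCs, against 1.84 FPKM in MEFs. The inner membrane scaffold gene Stoml2 was at 84.4 FPKM in iPSCs, against 36.6 FPKM in MEFs. The proteases that cleave OPA1 were within the rule, with Oma1 at 13.8 FPKM in iPSCs, against 10.7 in MEFs, and Yme1l1 at 82.8 FPKM in iPSCs, against 60.4 in MEFs.

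The fission list had 2 higher and 2 lower of 11 (median 0.08). Sh3glb1, which encodes endophilin B1, was at 28.8 FPKM in iPSCs, against 103 FPKM in MEFs. Inf2, a formin that builds actin at division sites, was at 3.63 FPKM in iPSCs, against 14.7 FPKM in MEFs. Mtfp1, an inner membrane protein of fission, was at 4.01 FPKM in iPSCs, against 0.694 FPKM in MEFs. Mff, a main receptor of DRP1, was within the rule at 76.8 FPKM in iPSCs, against 96.5 FPKM in MEFs. In the movement list 1 of 6 was past the rule, Armcx3, with 1.14 FPKM in iPSCs, against 13.3 FPKM in MEFs.

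The mitophagy list, of genes for the removal of mitochondria, went in both directions, with 2 higher and 3 lower of 9 (median -0.39). The receptor gene Bnip3 was at 203 FPKM in iPSCs, against 24.3 FPKM in MEFs. Calcoco2, whose human product is an autophagy receptor, was at 19.9 FPKM in iPSCs, against 0.0239 FPKM in MEFs. The lower genes were Optn, Pink1 and Sqstm1. The autophagy receptor gene Optn was at 4.22 FPKM in iPSCs, against 16.9 FPKM in MEFs. The last 2 were named after their values were seen, and Pink1, the kinase that marks damaged mitochondria, was at 9.72 FPKM in iPSCs, against 32.8 FPKM in MEFs.

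The partners of Tfam in replication and transcription of mitochondrial DNA had 5 of 15 higher and 0 lower (median 0.45). The nuclease gene Mgme1 (8430406I07Rik in the table) was at 11.6 FPKM in iPSCs, against 1.96 FPKM in MEFs. Polg2, the accessory subunit of the polymerase, was at 5.44 FPKM in iPSCs, against 1.06 FPKM in MEFs, and the single-strand binding gene Ssbp1 at 34.2 FPKM, against 13.1 FPKM. The list of nuclear regulators had 7 higher and 2 lower of 16 (median 0.64). Besides Esrrb, the largest differences were those of Pparg, at 0.134 FPKM in iPSCs, against 10.7 FPKM in MEFs, and of the mitochondrial deacetylase Sirt3, at 12.3 FPKM, against 3.58 FPKM. Nrf1, the factor whose core letters lie in the windows of Opa1 and Esrra, was at 40.9 FPKM in iPSCs, against 14.3 FPKM in MEFs, and was named after its value was seen.

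The import list had 4 higher and 0 lower of 12 (median 0.78), and all 12 had higher values in iPSCs than in MEFs, by 0.02 for Tomm22 and by 1.57 for Hspe1 at the ends of the range. Of all rows 21.1% were called higher, and 6289 of 12937 had a higher value in iPSCs than in MEFs. The chaperonin genes Hspe1 and Hspd1 were at 299.9 and 169 FPKM in iPSCs, against 100.5 and 74.9 FPKM in MEFs. The receptor gene Tomm20 was at 168 FPKM in iPSCs, against 78.3 FPKM in MEFs. The list of uncoupling proteins and related carriers, in which Ucp2 itself was not counted, had 0 higher and 2 lower of 6 (median -0.52). It had 1 higher and 1 lower after rescaling to the same upper quartile, and 1 lower with a pseudocount of 5 FPKM. Slc25a4, an ADP/ATP carrier, was at 94.0 FPKM in iPSCs, against 241 FPKM in MEFs. The dicarboxylate carrier gene Slc25a10 was at 4.35 FPKM in iPSCs, against 10.7 FPKM in MEFs.

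**Figure D4:**
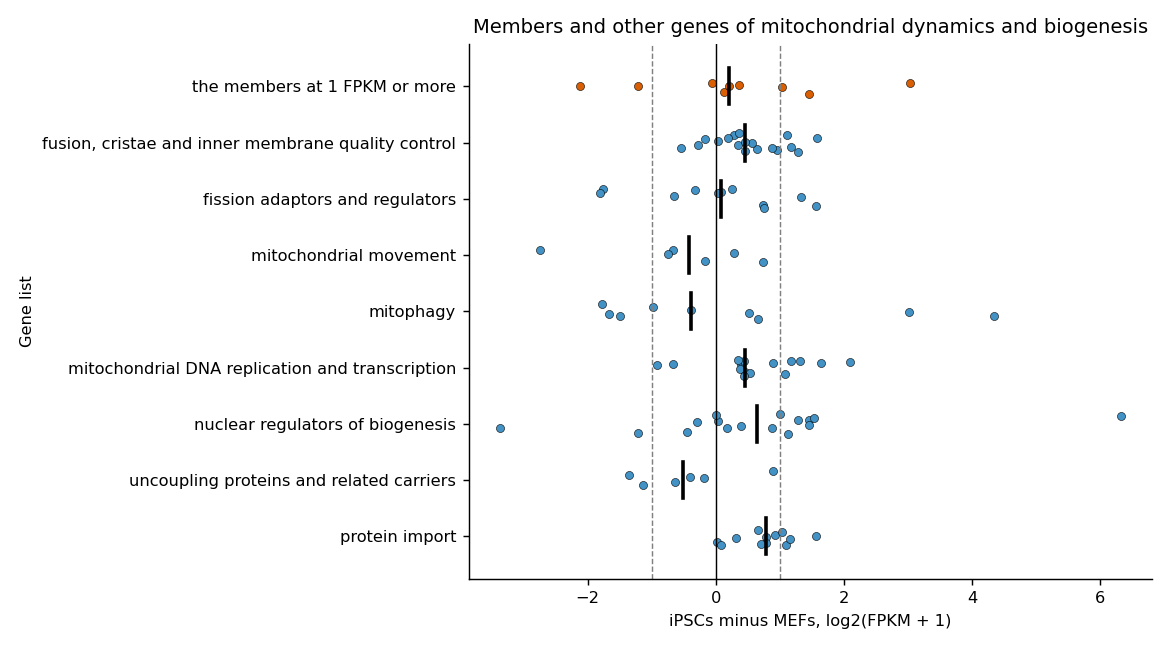
Differences between iPSCs and MEFs on the log2(FPKM + 1) scale (horizontal axis), 1 point for each gene at 1 FPKM or more in either library, for the members (orange) and the 8 other lists (blue, vertical axis), with a thick bar at each median and dashed lines at the rule of size. The members spread from -2.12 to 3.03 around a median of 0.20, and the import list lies between 0.02 and 1.57.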

How the data were processed

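RNA was sequenced in 8 samples, of which the 4 small RNA samples are not analysed here. The authors deposited a table of FPKM values, 1 column a stage, per the file headers. The submitters' processing notes name HISAT2, Cufflinks and the build mm9 without saying what each was used for. How strand was handled, the gene models and the depth are not given in the sources used. Ribosomal RNA had been depleted, per the labels' protocols. Members were matched by symbol, and the lists by symbol or, for 10 genes, by Ensembl identifier. Relative depth came from the most frequent ratio of values under 0.06 FPKM. A symbol on several rows was represented by its highest row.

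Differences were taken on log2(FPKM + 1), which understates those of low genes, and the rule of size was applied with pandas 2.3.3 under Python 3.11.15. The code was tested on simulated data. The letters of the NRF1 core were shortened after a first search with a longer form, which among the members had matched Opa1 alone. All members were named. Of each list up to 3 genes with the largest difference past the rule between iPSCs and MEFs were named by rule. Every other gene of the lists that is named, such as Oma1, Yme1l1, Mff, Tomm22, Ucp1, Ucp3 and Esrrg, was chosen after its values were seen. The members and lists were chosen with earlier results of these data known. Alternatives were other pseudocounts, minima, thresholds, rescalings and the choice of row.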

Additional observations from a re-analysis of the deposited data

How the results depend on the processing

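No call has a replicate check. No paired analysis was possible because there was 1 library a stage, which also left no replicate to omit. Of 135 counts and medians of the members under 9 alternatives, 131 stayed within the tolerance, which was 1.5-fold for a count and a 1.5-fold change of the underlying ratio for a median. Medians near 0 moved more in relative terms. Rescaling to the same upper quartile gave 0.359 for iPSCs against MEFs, 0.205 for iPSCs against day 6, 0.135 for day 6 against MEFs and 0.015 for day 3 against MEFs. Without rescaling they were 0.197, 0.093, 0.08 and -0.005, so the last changed sign. Without a minimum on FPKM the median for day 6 against day 3 was 0.041, beside 0.075 with it. With a log2 difference of at least 2, the members higher in iPSCs were 1 against day 6 and 1 against MEFs, and 1 was lower against MEFs, by construction of the stricter rule. With a fold of at least 1.5, 2 were lower in iPSCs than at day 6, since Fis1 then passed. Both rescalings left every call of a single member as it was. Of 373 values of single members, 7 no longer passed under an alternative and 1 newly passed. The pseudocount of 5 FPKM took Ppargc1b below the rule against MEFs and against day 6 (0.28 in both). A minimum of 5 FPKM removed Ppargc1b from the comparison, so that no value of it exists there. Of 720 counts of the other lists, 52 moved by more than 1.5-fold. Low levels, above all those of the PGC-1 genes, are limited by depth.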

Other observations

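Some genes of the lists have a close relative with the opposite difference between iPSCs and MEFs. These were read from the values after they were seen. The ADP/ATP carrier gene Slc25a4 was at 94.0 FPKM in iPSCs, against 241 FPKM in MEFs, while Slc25a5, another ADP/ATP carrier, was at 293 FPKM in iPSCs, against 156 FPKM in MEFs, a difference of 0.90 that is within the rule. Of the catalytic subunits of the energy sensor AMPK, Prkaa1 was at 10.8 FPKM in iPSCs, against 26.3 FPKM in MEFs, and Prkaa2 at 5.34 FPKM in iPSCs, against 1.59 FPKM in MEFs. Both AMPK genes were past the rule. Of the mitochondrial transcription factors B, Tfb1m was at 9.66 FPKM in iPSCs, against 4.03 FPKM in MEFs, and Tfb2m at 3.26 FPKM in iPSCs, against 7.05 FPKM in MEFs, the last within the rule at -0.92.

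Pprc1, the third gene of the PGC-1 family, was at far higher levels than Ppargc1a and Ppargc1b. Like Ppargc1b and unlike Ppargc1a, Pprc1 was lowest in MEFs and highest in iPSCs. Pprc1 had 10.5 FPKM in the MEF library, 16.6 at day 3, 14.6 at day 6 and 22.0 in iPSCs, and was just past the rule between iPSCs and MEFs. Its difference of 0.61 between day 3 and MEFs was the largest of the nuclear regulator list in that contrast.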
